A study of Mus musculus with 4 samples.

Results

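The distal intergenic binding regions of Tfcp2l1 described here are the peaks found in both repeats of a chromatin immunoprecipitation experiment that lie outside protein-coding genes and some way from their ends. A region was included when its peak in repeat 1 overlapped a peak of repeat 2 by at least 1 bp and stood on an autosome. Its summit in repeat 1 also had to lie outside every protein-coding gene, more than 10 kb and at most 100 kb from the nearest protein-coding gene end, and more than 1 kb from any end of a long non-coding RNA (lncRNA) gene. These conditions were met by 8002 regions, which is 18.5% (exact 95% binomial interval 18.1% to 18.9%) of the 43258 autosomal shared peaks, out of 43851 shared peaks on all chromosomes. Beyond the calling of a peak in both repeats, which itself needs ChIP tags above background, membership used position and overlap and no enrichment value. All positions are taken as GRCm38.

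Tfcp2l1 was measured in wild type mouse embryonic stem cells, with no further treatment, in a 2i medium that contained the GSK3 inhibitor CHIR99021 at 3 µM, the MEK inhibitor PD0325901 at 1 µM and LIF at 1000 units/mL. There were 2 repeats, each of 1 ChIP library precipitated with 10 µg of a custom antibody and 1 input library of chromatin that was not precipitated. All 4 libraries came from the same genotype and medium, so the comparison in the data is ChIP against input, and no cells lacking Tfcp2l1 were analysed here. The name of the stem cell line and whether the repeats came from separate cultures are not given in the labels, so the spread between repeats may be technical.

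The 2 peak lists held 57614 and 51610 peaks from 19353473 and 22555373 filtered ChIP tags. Values below are given for repeat 1 and then repeat 2. Fold enrichment is the authors' ratio of ChIP tags at a summit to the local background, and tags are the whole-number ChIP tags in a peak. No test over the 2 repeats was made. Each comparison is given in both repeats instead, and intervals cover counting error only. They treat regions as independent, although many lay within 12.5 kb of one another, so intervals of regions per Mb may be too narrow.

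Tfcp2l1 belongs to the CP2 family of transcription factors and sustains the naive pluripotent state downstream of LIF signalling and of GSK3 inhibition. It binds DNA as a dimer at a repeated CCAG-like element whose copies are set apart by a fixed spacer. Enhancers can act on genes over long distances and may skip the nearest gene, so the genes named below are the nearest protein-coding genes by position and not established targets.

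Letters of the bound regions could be shown where a summit fell in a 300-base RefSeq window around an annotated transcript start (GRCm38.p6). This was so for 12 of the 7733 regions on chromosomes with such windows, and all 12 windows belonged to internal starts of lncRNA genes. They are shown because they are the regions whose sequence can be read beside their enrichment. The 4 that ranked highest by fold enrichment, averaging the ranks of both repeats, are printed 5′ to 3′ on the strand of the lncRNA. Capitals mark matches, on either strand, to the paired element, 2 copies of CCNG with 6 bases of any kind between them, or, in Gm30234, which has none, to the relaxed form with CNNG in place of CCNG.
Gm30234: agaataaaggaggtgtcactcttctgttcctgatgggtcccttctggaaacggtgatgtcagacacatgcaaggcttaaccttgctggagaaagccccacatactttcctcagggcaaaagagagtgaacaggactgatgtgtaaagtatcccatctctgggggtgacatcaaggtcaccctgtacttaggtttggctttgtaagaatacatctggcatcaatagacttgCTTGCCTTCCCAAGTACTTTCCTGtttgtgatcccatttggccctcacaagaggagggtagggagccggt
Gm39558: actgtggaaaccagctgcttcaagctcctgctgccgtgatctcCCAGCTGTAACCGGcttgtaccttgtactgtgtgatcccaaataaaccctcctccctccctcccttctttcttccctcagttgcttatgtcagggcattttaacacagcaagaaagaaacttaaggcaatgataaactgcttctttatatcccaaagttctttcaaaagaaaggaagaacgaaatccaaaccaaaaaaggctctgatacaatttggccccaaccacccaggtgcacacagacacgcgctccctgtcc
Platr6: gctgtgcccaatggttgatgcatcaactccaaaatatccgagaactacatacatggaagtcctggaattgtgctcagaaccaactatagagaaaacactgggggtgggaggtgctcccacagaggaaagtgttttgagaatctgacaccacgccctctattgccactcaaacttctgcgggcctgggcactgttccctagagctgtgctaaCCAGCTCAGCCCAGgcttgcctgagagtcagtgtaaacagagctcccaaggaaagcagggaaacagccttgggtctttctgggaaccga
Gm31615: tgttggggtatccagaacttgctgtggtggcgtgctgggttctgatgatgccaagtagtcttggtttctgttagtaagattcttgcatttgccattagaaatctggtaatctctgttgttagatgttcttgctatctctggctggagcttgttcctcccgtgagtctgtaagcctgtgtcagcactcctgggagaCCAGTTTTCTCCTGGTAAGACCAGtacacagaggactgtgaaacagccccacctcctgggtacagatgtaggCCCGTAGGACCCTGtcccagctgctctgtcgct

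The window of Gm30234 (chr19:53064640-53064939, minus strand) lay under the strongest of the 12 peaks. Its peak had 101.45-fold and 91.44-fold enrichment with 378 and 448 tags, 26.0 kb from Xpnpep1, which encodes an aminopeptidase. Both relaxed matches overlapped each other, and the summit stood at base 257, 10 bp from the middle of the nearer one. The same window held the letters TCAAGGTCA of the Esrrb element, seen in 0.423% of all 32851 windows.

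The window of Gm39558 (chr15:85001207-85001506, plus strand) had a peak of 62.81-fold and 38.07-fold, with the middle of its 1 paired match 70 bp from the summit. Platr6, a lncRNA gene named for its link to pluripotency, gave the third (chr10:21847563-21847862, minus strand), with 34.76-fold and 40.33-fold enrichment, 34.4 kb from the kinase gene Sgk1. Gm31615 (chr17:88354423-88354722, minus strand) had 36.72-fold and 27.19-fold enrichment and 3 paired matches, of which a pair overlapped.

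Over all 12 windows, 7 (58.3%, interval 27.7% to 84.8%) held the paired element, against 1051 of the 1912 windows with a summit of another shared peak, 2318 of the 11588 lncRNA windows and 29.5% of all windows. The relaxed form, which contains the paired one, was in 9 of 12 windows (75%, 42.8% to 94.5%). It was in 91.3% of windows with a summit of another shared peak, 61.2% of lncRNA windows and 70.2% of all windows. The octamer ATGCAAAT was in 1 of 12 (1.74% of all), while TTCCNGGAA, GGGTGTGGC, CATTGTT and CACGTG were in none of the 12 (1.15%, 1.35%, 3.78% and 7.15% of all). A match describes letters and does not show a bound site. The 12 windows had a median GC content of 50.5%, against 60.7% in windows with a summit of another shared peak and 48.3% in all lncRNA windows.

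Distal intergenic regions carried enrichment of the same order as shared peaks elsewhere. Their median fold enrichment was 14.98 (quartiles 9.66 and 27.0) and 11.77 (7.85 and 20.4), against 15.46 and 11.77 for the 35256 other autosomal shared peaks. Single regions ranged from 4.4-fold to 172.47-fold and from 3.44-fold to 130-fold. Median tags per region were 55 and 57, against 59 and 56 for the other shared peaks. Median peak length was 954 bp and 991 bp.

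Among the position classes, the farthest was lowest in both repeats, and peaks at gene ends stood above the others in repeat 1 only. In repeat 1 the 6062 peaks within 1 kb of a gene end had the highest median, 17.16-fold with 72 tags, and the distal intergenic regions stood lower. In repeat 2 peaks at gene ends had the same median as the distal regions, 11.77-fold, with 58 tags. The 13373 peaks 1 to 10 kb from a gene end had medians of 15.46-fold and 11.77-fold. Medians of the 12348 peaks inside genes and beyond 10 kb of an end were 14.98-fold and 11.765-fold. The 2810 intergenic peaks beyond 100 kb were lowest in both repeats, with 13.53-fold and 10.99-fold and 46 and 50 tags. The spread within every class was wide beside these differences, since the quartiles of all classes overlapped.

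**Figure D1:**
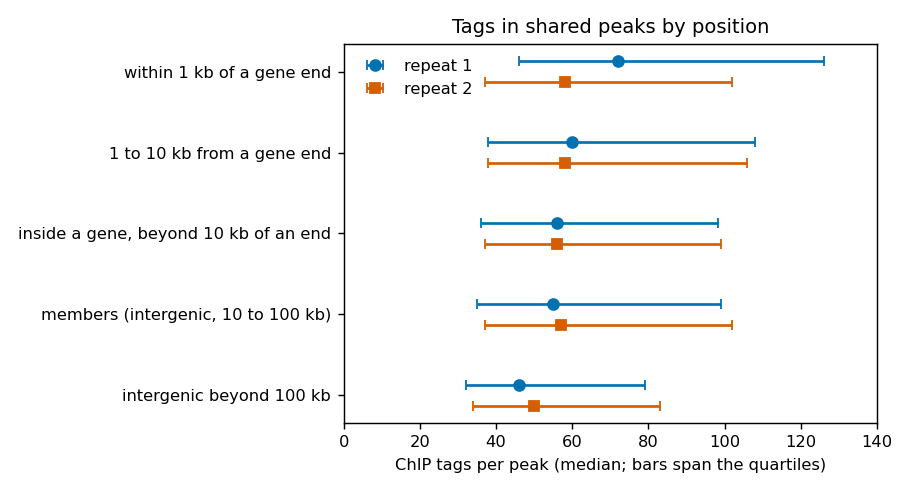
Median ChIP tags per shared peak (horizontal axis, tags) in 5 position classes (vertical axis) for repeat 1 (circles) and repeat 2 (squares), with bars from the lower to the upper quartile over peaks. The distal intergenic regions, labelled members, sit at 55 and 57 tags, and the widest gap between repeats is at peaks within 1 kb of a gene end, with 72 and 58.

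Strong peaks were about as frequent among distal regions as elsewhere. The top 10% of each list began at 43.41-fold and 32.18-fold, and 12.3% and 12.7% of the distal regions lay above that level. The same share was 13.4% and 12.3% of the other shared peaks, 15.8% and 12.1% at gene ends, and 9.004% and 9.29% beyond 100 kb. The 355 regions just inside the lower distance limit, 10 to 11 kb from a gene, had medians of 14.01-fold and 11.77-fold, and the 375 intergenic peaks just outside it, at 9 to 10 kb, had 13.53-fold and 10.99-fold. At the upper limit 23 regions between 99 and 100 kb had 14.3-fold and 11.38-fold, and the 25 intergenic peaks in the next kilobase beyond it had 19.32-fold and 18.05-fold.

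Summits of the distal regions lay close together in the 2 repeats, as they did at other shared peaks. Overlap between the lists was a condition of entry, so part of this agreement follows from the rule. Summits of matched peaks lay a median of 27 bp apart, and 88.5% lay within 100 bp, against 29 bp and 88.3% for the other autosomal shared peaks. In 275 cases regions shared their match, so the 8002 regions correspond to 7864 peaks of repeat 2. Fold enrichment had Spearman's rho of 0.817, and Pearson's r of 0.87 on the log2 scale, across the 7727 regions with an unshared match. The other autosomal shared peaks had 0.812 and 0.86 by the same measures. These are descriptions across regions of the same 4 libraries, which are not independent replicates.

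Repeat 1 gave the higher fold enrichment at 76.1% of the regions, with a median log2 ratio of repeat 1 to repeat 2 of 0.36 (quartiles 0.02 and 0.70). The ratio was within 2-fold in either direction at 88.5% of regions. At least 10-fold enrichment in both repeats was reached by 4441 regions (55.5%), and at least 100-fold by 120 in repeat 1, 27 in repeat 2 and 22 in both. Of the 10422 peaks of repeat 1 that met the position rule, 76.8% (76.0% to 77.6%) were found in repeat 2, and of the 9436 such peaks of repeat 2, 83.9% (83.1% to 84.6%) were found in repeat 1. Peaks at gene ends gave 74.99% and 90.9% by the same count, and those beyond 100 kb gave 68.8% and 80%.

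**Figure D2:**
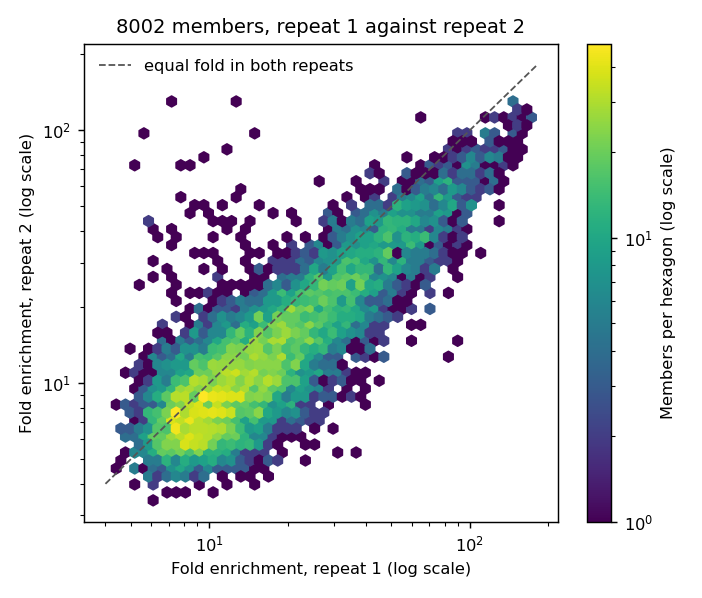
Fold enrichment of the 8002 distal regions in repeat 1 (horizontal, log scale) against that of the matched peak in repeat 2 (vertical, log scale), with the number of regions per hexagon as colour on a log scale. Most regions follow the dashed line of equal fold or lie below it, since 76.1% were higher in repeat 1. The few hexagons far above the line are regions whose repeat-2 fold exceeded that of repeat 1.

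The strongest distal regions were read by the mean of their ranks in both repeats. The first was downstream of Arl4a, which encodes a small GTPase (chr12:39997695-39999560), with 172.47-fold and 115-fold enrichment and 580 and 659 tags. Next came a region 14.1 kb from Tgs1, which encodes an enzyme that methylates the cap of small nuclear RNAs, with 163.94-fold and 121.15-fold. The third lay 36.7 kb upstream of Id3, which encodes an inhibitor of basic helix-loop-helix factors and is induced by BMP signals, at chr4:136106508-136107759, with 168.63-fold and 114.2-fold. In all of these both repeats were above 100-fold.

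A region 33.3 kb upstream of Pik3r1, the gene of a regulatory subunit of PI3 kinase (chr13:101800917-101802190), had 154.11-fold and 123.62-fold enrichment. It was the only one of the distal regions with Pik3r1 as nearest gene, although 176 kb of sequence around that gene met the position rule. A region 28.1 kb from Prdm14, which encodes a repressor of differentiation and DNA methylation in naive cells (chr1:13084381-13085736), had 153.63-fold and 123.46-fold with 660 and 726 tags. The region 64.6 kb from Hes1, which encodes a repressor of the Notch pathway (chr16:30131716-30133699), had 152.18-fold and 98.11-fold.

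The other 14 of the 20 strongest had as nearest genes Egln3, Ivns1abp, Optc, Ssbp3, Spesp1, Dynlt1c, Ckap4, Fam53a, Mkln1, Marcks, Gfpt2, Dnajc12, Cpn2 and Vwa5b1. Egln3 encodes an oxygen-sensing prolyl hydroxylase, Marcks a substrate of protein kinase C and Gfpt2 an enzyme of hexosamine synthesis. All 20 lay between 142.04-fold and 172.47-fold in repeat 1 and between 97.48-fold and 130-fold in repeat 2, with 430 to 956 and 385 to 1218 tags. Their distances from the nearest gene ran from 10.0 kb at Dynlt1c to 92.5 kb at Marcks, and 2 of the 20, nearest to Mkln1 and Vwa5b1, lay inside a lncRNA gene. For 7 of the 20 no other distal region lay within 12.5 kb. At the other end of the ranking, a region 29.6 kb from Zfand6 had 5.13-fold and 3.92-fold, and a region near the middle, 15.1 kb from the LIF pathway kinase gene Jak1, had 15.94-fold and 10.6-fold.

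Density fell with distance from genes. Eligible sequence, meaning autosomal bases at which a summit would meet the rule, came to 517.0 Mb and held 15.5 distal regions per Mb (exact 95% Poisson interval 15.1 to 15.8). Between 10 and 20 kb from a gene there were 20.2 per Mb (19.4 to 21.0), from 2598 regions in 128.5 Mb. Between 90 and 100 kb there were 9.35 per Mb (8.27 to 10.5), from 270 regions in 28.9 Mb. Each of the 9 bands of 10 kb was lower than the one before, in the shared peaks and in each repeat's own list, although neighbouring intervals overlapped in several bands.

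Intergenic shared peaks within 1 kb of a gene end reached 68.9 per Mb, those at 1 to 10 kb 24.4 per Mb, and those beyond 100 kb 3.96 per Mb. The enrichment of single regions did not fall in the same way: band medians were between 13.84-fold and 15.46-fold in repeat 1 and between 11.38-fold and 11.92-fold in repeat 2. Sequence that tags cannot be mapped to was not removed from the denominators, and its part in the densities was not tested.

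**Figure D3:**
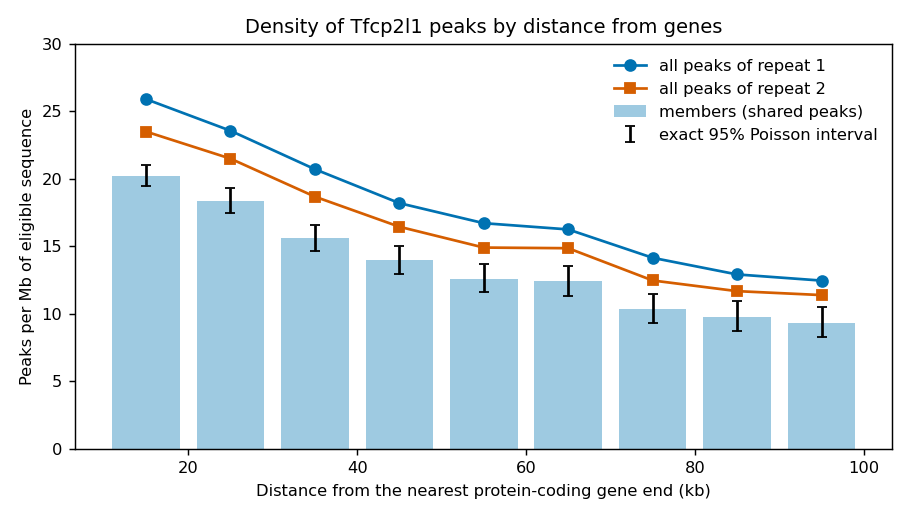
Shared distal regions per Mb of eligible sequence (bars, with exact 95% Poisson intervals) in bands of 10 kb from the nearest protein-coding gene end (horizontal, kb), with all peaks of repeat 1 and of repeat 2 that met the same position rule as lines. The bars fall from 20.2 per Mb in the nearest band to 9.35 in the farthest, and both lines fall with them.

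Regions were found on both sides of genes. The strand of the nearest gene was given for 6173 regions, of which 3430 lay upstream and 2743 downstream. Per Mb of eligible sequence this was 15.9 (15.3 to 16.4) upstream and 15.03 (14.5 to 15.6) downstream, and these intervals overlapped. Median fold enrichment was 15.1 and 11.77 upstream and 14.7 and 11.77 downstream. Within 1 kb of genes, where regions were outside the rule, intergenic shared peaks were 107.6 per Mb upstream and 32.0 downstream. Among chromosomes the density ran from 10.2 per Mb on chromosome 3 to 25.4 per Mb on chromosome 11, and the median fold from 13.53 to 15.61 and from 10.69 to 13.34.

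Many distal regions had another nearby, a share that also depends on density and was not computed for other classes of shared peaks. Another distal region lay within 12.5 kb of 4399 of the 8002 (54.97%, 53.9% to 56.1%), and any other autosomal shared peak within that distance of 62.6%. Joining regions at 12.5 kb gave 3603 that stood alone, 925 groups of 2, 480 groups of 3 or 4 and 156 groups of 5 or more, the last with 965 regions. Regions that stood alone had medians of 14.14-fold and 10.99-fold with 50 and 51 tags. Regions in groups of 5 or more had 16.43-fold and 12.69-fold with 67 and 68 tags, and 17.5% and 17.6% of them were in the top 10% of their list, against 10.2% and 10.5% of those alone. Tags rose with group size in both repeats, from 50 and 51 through 56 and 60 and then 61 and 66, while fold rose in repeat 1 at each step and in repeat 2 up to groups of 3 or 4 (12.95).

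The largest group held 14 regions over 76.5 kb between Sall4 and Zfp64 (chr2:168779751-168856251), with folds from 5.74 to 40.73 and from 5.49 to 29.04. Sall4 encodes a zinc finger factor of the pluripotency network. A group of 13 regions lay near Sik1, the gene of a salt-inducible kinase (chr17:31775369-31832774), with folds of up to 55.2 and 29.47. A group of 12 lay between Spag9, which encodes a JNK scaffold, and the antiproliferative gene Tob1 (chr11:94135605-94180191). It reached 80.51-fold and 63.93-fold, and 9 of its regions lay inside lncRNA genes.

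By gene, the distal regions had 3872 nearest genes among the 20661 autosomal protein-coding genes (18.7%), or 32.5% of the 11899 genes that had any eligible sequence. Of these, 2068 had 1 region, 318 had 5 or more and 31 had 10 or more. Adgrd1, which encodes an adhesion receptor, was nearest to 18, and the zinc finger gene Zfp64 and the Polycomb component gene Rybp to 16 each. Med13l (a Mediator subunit), Hes1 and Irf2bpl had 15 each, Sall1 and Tbx3 14 each, and Tmem17 and 1700001O22Rik 13 each. These counts also depend on how much eligible sequence a gene has, which was 57.8 kb for Irf2bpl and 171.5 kb for Sall1. The best region of Irf2bpl had 142.52-fold and 76.18-fold enrichment, and that of Rybp 116.76-fold and 89.87-fold.

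Genes of naive pluripotency, the state that 2i with LIF maintains, were the list with the highest share. A distal region was nearest to 16 of the 21 autosomal genes of that list (76.2%, 52.8% to 91.8%), with 18.7% over all genes. Of the list's genes, 19 had eligible sequence and 16 of these had a region, with 32.5% over all genes with eligible sequence. These shares do not take into account how much eligible sequence each gene has. The list's 77 regions came to 51.7 per Mb (40.8 to 64.6), where 15.5 per Mb held over all regions and 47.4 per Mb around housekeeping genes. At the density of each distance band over all regions, 22.2 regions would fall in that sequence. The 77 were unevenly spread, with 14 at Tbx3, 13 at Klf4 and 8 at Prdm14. The median enrichment of the 77 was 15.46-fold and 11.38-fold, close to that of all regions. The 5 genes without a region were Dppa2, Dppa5a, Fbxo15, Fgf4 and Zfp57.

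Klf4 encodes a Krüppel-like factor that also serves in reprogramming, and 13 regions had it as nearest gene, 11 of them downstream. The strongest, 51.6 kb downstream (chr4:55475013-55476596), had 78.49-fold and 58.08-fold enrichment with 372 and 363 tags. Others on that side had 74.29-fold and 37.14-fold at 18.5 kb, and 71.49-fold and 27.92-fold at 62.9 kb. Between 45.9 and 52.8 kb there were 5 regions in a row, the remaining 4 at 14.69-fold to 36.08-fold and 11-fold to 27-fold, of which a pair shared their match in repeat 2. The 2 upstream regions had at most 10.15-fold and 7.06-fold, within the range of the weakest downstream ones.

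At Prdm14 1 region stood far above the rest. It had 153.63-fold and 123.46-fold enrichment, and the next, 18.6 kb from the gene and inside a lncRNA gene, had 53.14-fold and 35.32-fold. The other 6 lay between 10.15-fold and 27.49-fold and between 6.28-fold and 14.06-fold. Tbx3, which encodes a T-box factor, had regions on both sides, 8 at lower and 6 at higher coordinates. Its strongest, 28.3 kb from the gene (chr5:119712242-119713833), had 86.74-fold and 78.49-fold, and a region at 22.1 kb had 76.82-fold and 51.80-fold. On the other side the strongest, 13.6 kb away and in the lncRNA gene Tbx3os1, had 52.66-fold and 58.86-fold. Tfcp2l1 itself was nearest to 1 distal region, 48.7 kb downstream (chr1:118733316-118734611), with 62.09-fold and 31.67-fold and 213 and 208 tags.

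Hes1 also had regions on both sides. Of its 15 regions 10 lay on the side of higher coordinates, including those at 21.3 kb (92.28-fold and 55.33-fold), 31.9 kb (47.83-fold and 29.82-fold), 47.6 kb (55.4-fold and 49.64-fold) and 64.6 kb (the strongest). The remaining 5, at lower coordinates, did not pass 24.15-fold and 32.86-fold. Farther along the same stretch of chromosome 16 was the region nearest to Cpn2 that is among the 20 strongest, with 143.97-fold and 104.39-fold (chr16:30215419-30216622).

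**Figure D4:**
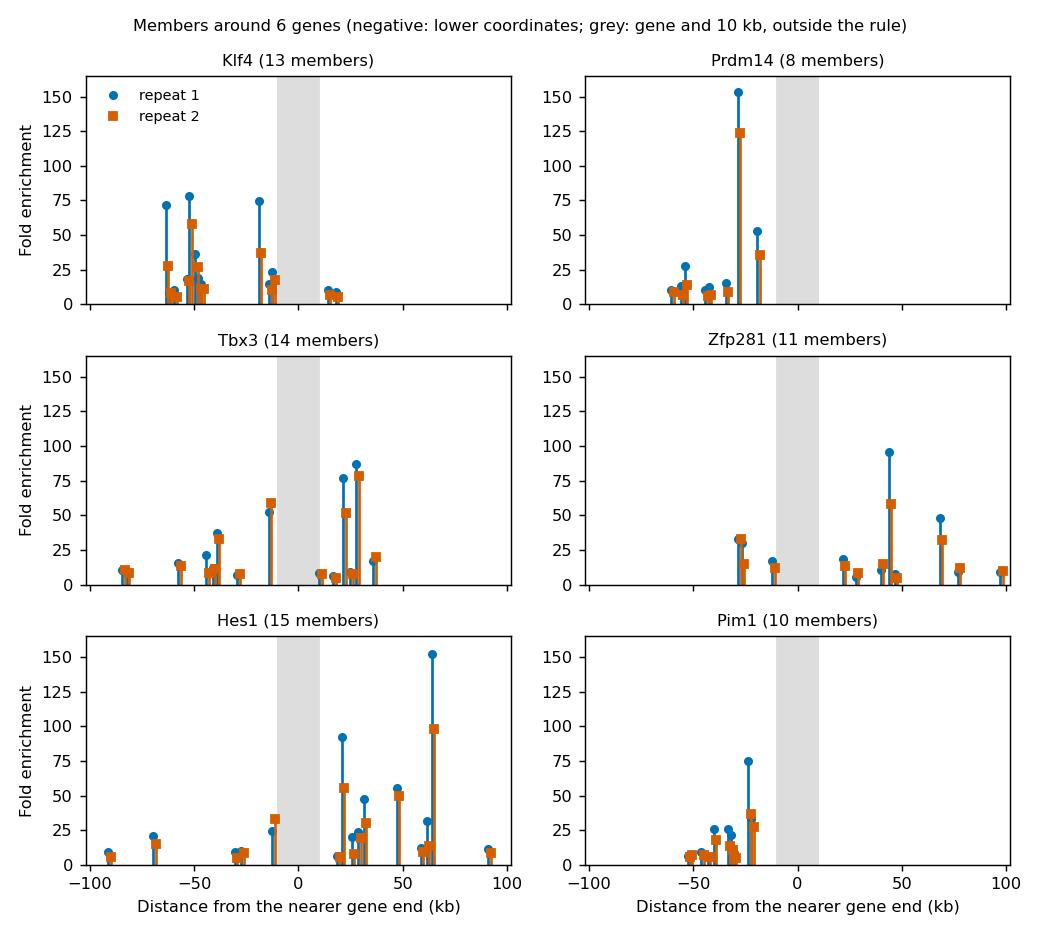
Fold enrichment (vertical) of every distal region nearest to 6 genes, by distance from the nearer gene end (horizontal, kb; negative is towards lower coordinates), for repeat 1 (circles) and repeat 2 (squares, drawn slightly to the right). Grey covers the gene and 10 kb on each side, which the rule leaves out. Strong regions are few at each gene: at Prdm14 the highest has 153.63-fold and 123.46-fold and the next 53.14-fold and 35.32-fold.

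Other regulators of pluripotency had distal regions too. In the general pluripotency list 7 of 13 genes did (53.8%, with 18.7% over all genes and 32.5% of genes with eligible sequence). Their 44 regions came to 63.8 per Mb (46.3 to 85.6), with 15.5 per Mb over all regions and 47.4 per Mb (22.7 to 87.2) around housekeeping genes. Zfp281, which encodes a zinc finger factor, had 11, the strongest 44.3 kb downstream with 95.8-fold and 58.44-fold. Jarid2, which encodes a cofactor of Polycomb repressive complexes, had 9. The one ranked highest had 77.68-fold and 41.21-fold, and another reached 56.51-fold in repeat 2. Pou5f1, which encodes Oct4, had 1, 15.5 kb upstream with 54.59-fold and 21.98-fold. Gdf3, Lin28a, Lin28b, Rif1, Tdgf1 and Trim28 had none.

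In the LIF and Stat3 list, the pathway that induces Tfcp2l1, 7 of 17 genes had a region (41.2%). The share was 18.7% over all genes and 32.5% over genes with eligible sequence. The list's 22 regions came to 49.8 per Mb (31.2 to 75.4), with 15.5 per Mb over all regions and 47.4 per Mb (22.7 to 87.2) around housekeeping genes. Socs3, the feedback inhibitor of the pathway, had 4 regions, all downstream, and the strongest had 75.52-fold and 52.19-fold at 10.3 kb. Pim1, a Stat3-induced kinase gene, had 10 regions, all upstream and all inside lncRNA genes, led by 74.82-fold and 36.5-fold at 23.0 kb. Il6st, which encodes the receptor subunit gp130, had 2, with 33.04-fold and 33.67-fold in the stronger. Stat3 itself had none.

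Pathways touched by the 2 inhibitors, and the related Nodal and BMP pathways, had between 20.5 and 34.2 regions per Mb. The share of genes with a region is read beside 18.7% over all genes and 32.5% over genes with eligible sequence. In the Wnt list, which CHIR99021 acts on, 10 of 23 genes (43.5%) had 28 regions (34.2 per Mb, 22.7 to 49.5). They included the receptor gene Fzd7 (78.82-fold and 49.45-fold), Tcf7l2, which encodes a DNA-binding partner of beta-catenin (68.79-fold and 47.88-fold), and Ctnnb1, which encodes beta-catenin (50.18-fold and 41.6-fold). In the FGF and ERK list, which PD0325901 acts on, 10 of 21 genes (47.6%) had 27 regions (21.8 per Mb, 14.4 to 31.7). Among them were the ERK inhibitor gene Spred2 (78.27-fold and 46.15-fold) and the receptor gene Fgfr1 (56.52-fold and 48.27-fold). The Nodal, activin and BMP list had 12 of 24 genes (50%) and 34 regions (20.5 per Mb, 14.2 to 28.6). Its genes included Id2 at 86.8-fold and 66.32-fold and Smad7, which encodes an inhibitory Smad, at 74.09-fold and 38.93-fold. The intervals of the last 2 lists reach down to the 15.5 per Mb of all regions.

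Cell cycle and glycolysis genes had more regions per Mb of eligible sequence than the 15.5 of all regions. Both densities lay within the interval of the housekeeping control list (47.4 per Mb, 22.7 to 87.2). In the cell cycle list 9 of 19 genes had a region (47.4%). The share was 18.7% over all genes and 32.5% over genes with eligible sequence. The list's 36 regions came to 57.8 per Mb (40.5 to 80.0), with 15.5 per Mb over all regions, and 11 of them were nearest to Myc. None of those 11 passed 25.61-fold and 18.05-fold, and 8 lay in the lncRNA gene Pvt1. Cdkn1a, which encodes the cell cycle inhibitor p21, reached 42.46-fold and 32.18-fold, and Ccnd1, which encodes cyclin D1, 26.09-fold and 18.44-fold. In the glycolysis list 3 of 15 genes, a share near the 18.7% of all genes, held 15 regions, or 66.0 per Mb (37.0 to 108.9), the highest density of the 22 lists. The glucose transporter gene Slc2a1 had 7, of which the one ranked highest had 66.64-fold and 38-fold and another reached 68.36-fold in repeat 1. The hexokinase gene Hk2 had 6 (61.56-fold and 39.21-fold), and Pfkp had 2.

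Lineage lists are read beside the same background of 18.7% of all genes, 32.5% of genes with eligible sequence and 15.5 regions per Mb. The formative and primed epiblast list had 10 of 15 genes and 32 regions (24.8 per Mb, 16.9 to 34.98), with the strongest at Otx2, 49.1 kb upstream (94.21-fold and 71.42-fold). The trophoblast list had 8 of 13 genes and 26 regions (37.0 per Mb, 24.2 to 54.3), including 129.59-fold and 42.92-fold at Tfap2c, with repeat 2 well below repeat 1. The mesoderm list had 8 of 14 (29.8 per Mb, 19.3 to 44.1), led by the organizer gene Gsc at 128.68-fold and 96.54-fold. The endoderm list had 8 of 14 (19.5 per Mb, 12.1 to 29.8), an interval that includes 15.5. The neural progenitor list had 6 of 14 (24.8 per Mb, 16.5 to 35.9), with 15 of its 28 regions at Hes1.

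Among the remaining lists, the CP2 and Grainyhead family, to which Tfcp2l1 belongs, had 4 of 6 genes with 6 regions (30.6 per Mb, 11.2 to 66.7), and Grhl3 had 3 of these. The chromatin and DNA methylation list had 7 of 19 genes (36.8%, near the 32.5% of genes with eligible sequence) with 13 regions (24.9 per Mb, 13.2 to 42.5), the strongest at the DNA demethylase gene Tet1 (50.99-fold and 36.1-fold). Epithelial junction genes had 5 of 18 (27.8%), with 13 regions (38.7 per Mb, 20.6 to 66.2), including 109-fold and 72.69-fold at the desmosome gene Dsp and 99.68-fold and 36.1-fold at Epcam. The kidney collecting duct, where Tfcp2l1 is also expressed, had 5 of 14 genes with 7 regions (17.0 per Mb, 6.83 to 34.98). Housekeeping genes, a control list, had 3 of 12 genes (25%) with 10 regions, or 47.4 per Mb (22.7 to 87.2), an interval that includes the 51.7 per Mb of naive pluripotency genes. Their strongest region, near Actb, had 86.82-fold and 49.23-fold.

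Lists of markers of other cell types had fewer regions per Mb than the 15.5 of all regions. Liver markers had 2 of 12 genes and 4 regions (11.9 per Mb, 3.23 to 30.4), and blood and immune markers 2 of 11 genes and 2 regions (7.18 per Mb, 0.869 to 25.9), none above 13.04-fold. Neuron terminal markers had 3 of 10 and fibroblast markers 3 of 12, with 10.1 (3.27 to 23.5) and 10.7 (4.31 to 22.1) per Mb. Single regions there were nevertheless strong: 134.31-fold and 82.86-fold near the neurofilament gene Nefl, 125.13-fold and 60.43-fold near Thy1, 119.81-fold and 81.63-fold near Col1a1, and 118.85-fold and 87.86-fold near Fn1. These lists are small, and the intervals of all 4 include 15.5 per Mb.

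**Figure D5:**
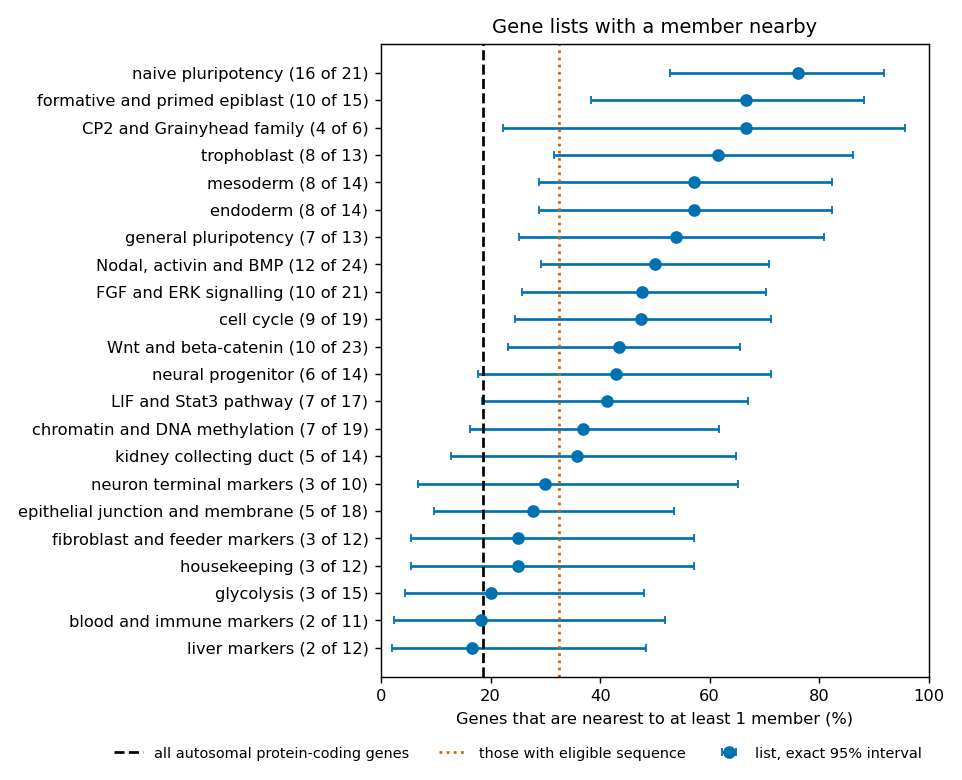
Percentage of the autosomal genes of each of 22 lists that are the nearest gene of at least 1 distal region (horizontal, %; points, with exact 95% binomial intervals), with the share over all autosomal protein-coding genes (18.7%, dashed) and over those with eligible sequence (32.5%, dotted). Naive pluripotency is highest, with 16 of 21 genes, and liver markers are lowest, with 2 of 12.

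Non-coding genes overlapped a part of the regions. Inside lncRNA genes lay 1406 regions (17.6%), against 18.4% of the intergenic shared peaks beyond 100 kb. The share was 9.71% of all other shared peaks, most of which lie in or near protein-coding genes. Unlike the distal regions, both comparison sets keep peaks within 1 kb of a lncRNA gene end. Per Mb of eligible sequence there were 21.0 (19.9 to 22.1) inside lncRNA genes and 14.7 (14.3 to 15.01) outside, and median enrichment was 14.69-fold and 11.38-fold inside and 14.98-fold and 11.77-fold outside. In all, 936 of the 12408 autosomal lncRNA genes (7.54%) held a region and 32 held 5 or more. The names that follow were chosen after their values were seen. Gm32611, near Zc3h12a, held 12 regions, Pvt1 8 and Tbx3os1 6. Of the 16 autosomal Platr genes, lncRNA genes named for pluripotency, 6 held a region, with 7.54% over all lncRNA genes. Platr6 held 4, Platr11 3, Platr22, Platr26 and Platr30 2 each, and Platr14 1. The 7.54% also counts lncRNA genes without eligible sequence, and gene length was not taken into account.

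Regions near microRNA genes were few but dense. Within 10 kb of a microRNA gene lay 78 regions, or 42.0 per Mb (33.2 to 52.4) of the 1.86 Mb of eligible sequence there, against 15.4 per Mb elsewhere. At the density of each distance band over all regions, 28.7 would fall there. Their median enrichment, 16.1-fold and 10.99-fold, was close to that of the other regions. Within 2 kb lay 23 regions near 22 microRNA genes, of which 18 had an entry in the RefSeq sequence table. Names are again given after the values were seen.

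The mature strands of 7 of these microRNAs, picked for being well studied, are shown as examples of genes with a region within 2 kb, with the seed (bases 2 to 8) in capitals and as RefSeq gives them for GRCm38.p6. No pair among the 7 has the same seed.
mmu-miR-202-3p: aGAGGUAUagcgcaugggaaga
mmu-miR-184-3p: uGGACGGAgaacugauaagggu
mmu-miR-193a-3p: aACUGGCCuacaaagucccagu
mmu-miR-17-5p: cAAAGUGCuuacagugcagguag
mmu-miR-182-5p: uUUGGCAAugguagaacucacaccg
mmu-miR-34a-5p: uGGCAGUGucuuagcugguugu
mmu-miR-183-5p: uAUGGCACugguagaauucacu

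Mir202, 12.7 kb from the stem cell gene Utf1 (chr7:139957689-139957760), lay inside a region with 7.55-fold and 7.85-fold enrichment, 13 bp from its summit. The region near Mir184 was the strongest of the 7, with 48.31-fold and 30.22-fold enrichment 647 bp from the gene. At Mir193a the values were 28.59-fold and 24.33-fold, and at Mir17, the first gene of its polycistronic cluster (chr14:115043671-115043754), they were 22.22-fold and 10.6-fold at 1048 bp. Mir182 and Mir183, which are neighbours in 1 cluster on chromosome 6, had separate regions with 29.96-fold and 19.26-fold and with 12.74-fold and 6.58-fold. Mir34a, a p53-induced gene, had 18.36-fold and 10.99-fold at 1613 bp. Mir1897 had 2 regions, both nearest to Sox2, which encodes a core pluripotency factor. The region that holds the gene had 19.81-fold and 10.36-fold, and the other, 1323 bp away (chr3:34636680-34637667), had 27.05-fold and 15.3-fold.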

How the data were processed

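Tfcp2l1 ChIP and input libraries were analysed from 2 deposited peak lists, 1 per repeat. Per the file headers, the authors called peaks with MACS 1.4.1 for each ChIP library against its own input, without pooling, at a p-value cutoff of 1e-05, with at most 2 duplicate tags per position. The deposited tag values are raw counts per peak; the deposited score is MACS's scaled log p-value; the deposited fold enrichment is a ratio to local background; the deposited FDR is in percent. Filtered tags numbered 19353473 and 22555373 in the ChIP libraries and 18446758 and 23825930 in the inputs, per the file headers. The submitters' processing notes name CASAVA 1.8.2 and mm9, and an aligner is named nowhere in the sources used here. Positions were checked against RefSeq genes of GRCm38.p6 on 18 of the 19 autosomes. Per chromosome, 8.70% to 17.5% of shared summits lay within 1 kb of a transcription start. After moving them by 100 kb, 2.53% to 5.51% did, so GRCm38 was used. Chromosome 18 was not checked and was taken to be in the same build.

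Regions were matched, measured to the nearest of 20661 autosomal protein-coding genes and counted per eligible Mb in Python 3.11.15 with pandas 2.3.3 and scipy 1.17.1, on scripts tested on simulated data. Binomial (Clopper-Pearson) and Poisson intervals are exact, at 95%, and treat regions or genes as independent. The nearest gene was counted for 22 gene lists, with 323 of 334 genes matched on autosomes and 14 in more than 1 list. Genes were named by rule: nearest genes of the 20 regions ranked highest by fold, averaged over repeats, the 10 genes with most regions, up to 3 genes per list by rank, and the 5 largest groups, of which 2 are not reported here; others named were read from the same tables. The members and lists were chosen with earlier results of these data known. Planned sequence counts at summits were not made, since no genome was used here.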

Additional observations from a re-analysis of the deposited data

How the results depend on the processing

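Alternatives changed counts more than levels. Requiring an FDR of 0% in both repeats left 1259 of 8002 regions, 2.44 instead of 15.5 per Mb, 17.6% instead of 54.97% with a neighbour within 12.5 kb, 1026 instead of 3872 nearest genes and 8 instead of 16 naive pluripotency genes, and the ratio of the members' median fold to that of other shared peaks, averaged over repeats, became 1.01 instead of 0.984. The ratio was also 1 or more at a score of at least 100 (1.001) and without replicate 1, and it is 1 in repeat 2 as reported. At least 10-fold in both repeats left 4441 regions, 8.59 per Mb and 41.5% with a neighbour. A score of at least 100 left 5301, 10.3 per Mb and 46.9%. Summits within 100 bp gave 13.7 per Mb and 50.7%, and overlap of at least 50% of both peaks 52.5%. Distance to protein-coding and lncRNA genes together gave 10.5 per Mb and 48.5%, distances of 20 to 100 kb 13.9 per Mb, and 10 to 50 kb 17.8 per Mb. Joining at shorter or longer distance than 12.5 kb (5 or 25 kb) gave 35.2% and 67.2% with a neighbour. Without replicate 1 or 2, needing no sharing, there were 9436 to 10422 regions, 18.3 to 20.2 per Mb and 57.0% to 58.4% with a neighbour. By construction these settings admit fewer, more or other regions; for the fold ratio the cause was not tested. An expectation from distance bands, chosen after seeing the data, moved the densities relative to all regions little, from 3.34 to 3.47 for naive pluripotency genes, 1.36 to 1.38 inside lncRNA genes and 2.71 to 2.72 near microRNA genes. No paired analysis was possible because the results come from no test and the replicate numbers already define each ChIP with its input. The planned sequence windows of 200 bp, with their alternatives of 100 bp and the summit of repeat 2, were not run. Depth limits the weakest regions, of 16 and 18 tags.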

Other observations

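Inside pseudogenes lay 153 distal regions (1.91%). Fold enrichment takes repeated values in the lists: 153 regions had exactly 9.18-fold in repeat 1 and 229 had exactly 6.67-fold in repeat 2, so ranks by fold contain ties. The 663 shared peaks that met the distance limits but lay within 1 kb of a lncRNA gene end, which the rule leaves out, had medians of 15.94-fold and 11.77-fold with 62 and 60 tags. Among the 22 lists, the regions with the highest median were those of fibroblast and feeder markers in repeat 1 (37.2-fold, 7 regions) and of epithelial junction genes in repeat 2 (22.37-fold, 13 regions), whose values in the other repeat were 21.25-fold and 30.54-fold.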
